A study of Mus musculus with 6 samples.

Results

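The genes described here mark the endothelium of the liver. Of the 10, 6 are genes of the sinusoidal lining (Clec4g, Stab1, Stab2, Lyve1, Fcgr2b and Oit3) and 4 are genes of vessels in general (Flt1, Kdr, Vwf and Eng). The 6 were grouped as lectins and scavenger receptors, although Oit3 encodes a secreted protein. They were chosen by name, with earlier results of these data known. On the array 11 probes carry a RefSeq accession of 1 of them, so that all 10 were found among 22823 genes tested. Tested means well above background on at least 3 of the 5 mouse arrays in the Fra-1hep channel or on at least 3 of 6 arrays in the wild-type channel, and each of the 10 was above background in both channels of all 6 arrays.

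Total liver RNA was measured on 6 Agilent 2-colour arrays. The tested animals were Fra-1hep mice on the C57BL/6J strain, 26 to 28 weeks old, in which overexpression of the AP-1 transcription factor subunit Fra-1 is restricted to hepatocytes; they were set against 5 wild-type C57BL/6J mice of the same age, fed chow and pooled into a single RNA sample. On 5 arrays a single Fra-1hep mouse carried Cy5 and the wild-type pool Cy3, and the other array had the dyes exchanged, with a Fra-1hep pool in place of a single mouse. The animals were not treated. The promoter that drives the transgene, and the sex of the mice, are not given in the sources used here.

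Sinusoidal endothelial cells line the capillaries of the liver lobule. They are perforated by open pores and have no continuous basement membrane, and they take up waste macromolecules from blood through stabilins, lectins and the inhibitory IgG receptor Fcgr2b. Many vessels elsewhere, and the larger portal and central vessels of the liver, are lined by continuous endothelium, which can store von Willebrand factor. Both kinds depend on vascular endothelial growth factor (VEGF), which signals through the receptors Flt1 and Kdr, and on bone morphogenetic proteins of the circulation, for which endoglin (Eng) is a co-receptor. In chronic liver disease sinusoidal cells can lose their receptors and take on features of continuous capillaries, which is called capillarisation.

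Promoter windows of 7 of the 10 genes were matched in the RefSeq table for GRCm38.p6. Each spans 250 bases before to 50 after an annotated start. Printed here are the windows of Clec4g, the gene that was lowest in Fra-1hep liver, of Flt1, the highest, and of Eng, a vessel gene that was lower. Each line runs 5′ to 3′ along the gene, and capitals mark AGGAAG or its reverse complement CTTCCT. These are 1 form of the letters bound by ETS factors, a family that many endothelial genes depend on.
Clec4g, chr8:3720602-3720901, minus strand: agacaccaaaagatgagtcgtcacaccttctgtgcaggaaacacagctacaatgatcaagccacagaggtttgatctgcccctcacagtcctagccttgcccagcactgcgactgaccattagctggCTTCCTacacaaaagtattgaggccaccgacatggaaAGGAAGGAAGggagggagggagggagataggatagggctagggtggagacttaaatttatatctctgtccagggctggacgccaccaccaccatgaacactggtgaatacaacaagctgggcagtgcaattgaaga
Flt1, chr5:147725962-147726261, minus strand: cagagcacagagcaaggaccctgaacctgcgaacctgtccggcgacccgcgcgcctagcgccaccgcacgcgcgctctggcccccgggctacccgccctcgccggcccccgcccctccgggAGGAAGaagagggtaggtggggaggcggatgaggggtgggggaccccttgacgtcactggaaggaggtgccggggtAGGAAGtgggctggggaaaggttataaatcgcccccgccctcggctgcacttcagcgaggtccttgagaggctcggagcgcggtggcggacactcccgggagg
Eng, chr2:32646345-32646644, plus strand: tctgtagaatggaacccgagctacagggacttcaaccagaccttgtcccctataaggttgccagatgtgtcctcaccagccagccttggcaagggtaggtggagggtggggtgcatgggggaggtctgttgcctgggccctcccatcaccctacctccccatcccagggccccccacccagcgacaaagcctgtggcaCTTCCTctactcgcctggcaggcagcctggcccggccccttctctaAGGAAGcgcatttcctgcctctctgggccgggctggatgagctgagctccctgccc
The ETS letters were present in 5 of the 7 windows (Clec4g, Stab1, Stab2, Flt1 and Eng), against 35.4% of 32851 mouse promoter windows of the same length. The AP-1 letters TGANTCA, which read the same on both strands, were found in 0 of the 7 windows and in 7.81% of all windows. The GATA letters AGATAA, searched on both strands, were also found in 0 of 7, against 11.2% of all windows. ETS matches near each other in the Clec4g window share letters and were counted apart. The windows of Fcgr2b, which was lower, and of Kdr held neither AGGAAG nor CTTCCT, and Flt1 was the 1 higher gene with a window. Other forms of the letters that ETS, AP-1 or GATA factors bind were not searched, so the counts, also those of 0, hold for these letters only. These matches describe letters in a short window only.

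Values below are normalised signals of each channel, or the log2 ratio of Fra-1hep over wild type on an array, with the sign of the dye-swapped array reversed to match. Fitted ratios carry their standard error (SE) from a fit over 4 Fra-1hep samples and the dye-swapped array of pools. Arrays of mice 2 and 3 were counted as 1 sample. They differed by 1.03 times the noise seen between repeated spots, which is within that noise. The dye-swapped array had as much weight as all mouse arrays together. It is a single array, so its error is taken from the spread between the mouse arrays. The other pairs of mouse arrays differed by 1.80 to 2.30 times the noise. Pairing a mouse array with the dye-swapped array gave higher values, the lowest being 2.39 with mouse 2 and the highest 3.22 with mouse 4. The wild-type signals on the 6 arrays are repeat measurements of 1 pool, so p-values leave out the spread between wild-type mice. Probes differ in brightness for technical reasons, and signals are compared only within a gene. Between 45.0 and 58.9% of probes per channel were well above background, 0 spots were saturated, and the number of arrays limits the precision.

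The sinusoidal genes were lower in Fra-1hep liver, and the vessel genes moved in both directions. Of the 6 sinusoidal genes 5 fell at an adjusted p under 0.05, and Stab2 did not pass. Among the vessel genes Flt1 and Vwf rose, Eng fell and Kdr did not pass. Among all genes tested 12.5% changed, with 5.96% higher and 6.51% lower. The median log2 ratio was -0.51 for the sinusoidal genes and 0.10 for the vessel genes, against 0.01 for all genes tested. The vessel median took Kdr from the brighter of its 2 probes, and with the other probe (-0.56) it would be lower. Liver RNA was measured in bulk, so fewer cells of a type and less RNA per cell cannot be told apart. In the authors' own processed signals the ratios had the same directions, but 2 of the 10 genes passed (Flt1 and Eng), against 6.76% of all genes.

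**Figure D1:**
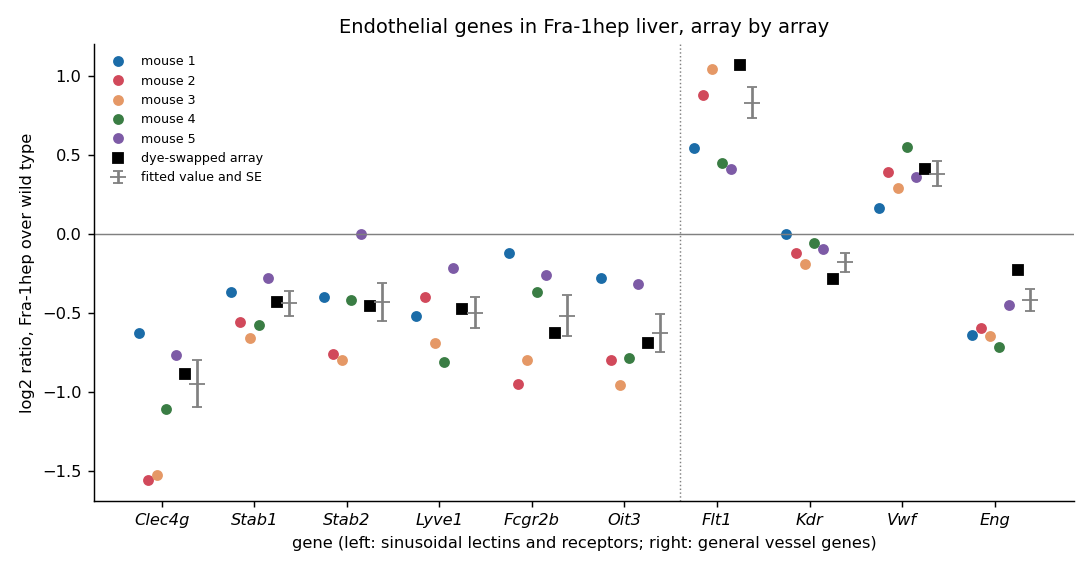
Log2 ratio of Fra-1hep over wild type (vertical axis) for the 10 endothelial genes (horizontal axis) on each of the 6 arrays. Circles are single mice and black squares the dye-swapped array. Grey bars are the fitted value with its SE, from 4 samples and the dye-swapped array. The 6 sinusoidal genes lie at or below 0 on all arrays, while Flt1 and Vwf lie above 0 on all arrays.

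Clec4g encodes LSECtin, a C-type lectin of sinusoidal endothelium. Its normalised signal in Fra-1hep liver was 7090, 3420, 3390, 4420 and 5590 in mice 1 to 5 and 4800 in the Fra-1hep pool, against 11000, 10100, 9800, 9540, 9510 and 8900 in the wild-type pool on the same arrays. Every Fra-1hep signal was below every wild-type signal. Mice 2 and 3 were lowest and mouse 1 was nearest to wild type. The gene was 1.93-fold lower (log2 -0.95, SE 0.15, n = 4, limma adjusted p = 0.00742), and 0.644% of all genes tested had a lower ratio. With the processed signals the value was -0.93 and the adjusted p 0.0561.

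Stab1 and Stab2 encode the stabilins, large scavenger receptors of the sinusoidal wall. Stab1 had signals of 1400, 1260, 1090, 1110 and 1420 in Fra-1hep mice 1 to 5 and 1250 in the Fra-1hep pool, against 1660 to 1870 in the wild-type pool. The groups did not overlap, and Stab1 was 1.36-fold lower (log2 -0.44, SE 0.08, adjusted p = 0.0114). Stab2, the clearance receptor for hyaluronan, had signals of 3890, 3170, 2800, 3670 and 4350 in Fra-1hep mice 1 to 5, against 5110, 5350, 4890, 4920 and 4350 in the wild-type pool on the same arrays. Mouse 5 had a log2 ratio of 0.00, and the other 4 mice lay between -0.80 and -0.40. The fitted ratio of Stab2 was as large as that of Stab1 (log2 -0.43, SE 0.12, 95% interval -0.72 to -0.14) but its adjusted p was 0.0631. Without mouse 5 it was -0.50 with an adjusted p of 0.0176.

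Lyve1 encodes a hyaluronan receptor of sinusoidal and lymphatic endothelium. Its probe was dim, with signals of 119 to 187 in Fra-1hep mice and 160 in the Fra-1hep pool, against 194 to 223 in the wild-type pool. The log2 ratios were -0.52, -0.40, -0.69, -0.81 and -0.22 in mice 1 to 5 and -0.48 on the dye-swapped array. Mouse 4 was lowest and mouse 5 nearest to wild type. Lyve1 was 1.41-fold lower (log2 -0.50, SE 0.10, adjusted p = 0.0178). An offset of 50 added to the signals pulls dim probes towards 0. With an offset of 10 the ratio was -0.66 (adjusted p = 0.0327), and with the processed signals, which carry none, -0.90 (adjusted p = 0.0510).

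Fcgr2b encodes the inhibitory IgG Fc receptor, which in liver clears small immune complexes and is also expressed in B cells and macrophages. Its probe is spotted 10 times on each array. Signals were 1200, 681, 708, 959 and 959 in Fra-1hep mice 1 to 5, against 1310, 1320, 1230, 1240 and 1150 in the wild-type pool on those arrays. The groups overlapped, since mouse 1 (log2 ratio -0.12) lay within the wild-type range and mice 2 and 3 (-0.95 and -0.80) were far below it. The SD between the 10 spots was 0.060 to 0.12 per array, smaller than the 0.83 between the lowest and the highest mouse. Of 5 tested B cell genes 2 fell, against 6.51% of all genes tested, and Cd79a was not tested, being dim. The summed signal of the 5 was 736 to 926 in Fra-1hep mice, against 963 to 1050 in the wild-type pool. The part of B cells in the Fcgr2b result was not tested. Fcgr2b was 1.43-fold lower (log2 -0.52, SE 0.13, adjusted p = 0.0376), but did not pass without mouse 4 (adjusted p = 0.0628) or mouse 5 (0.0508), or with median centring in place of loess (log2 -0.38, adjusted p = 0.0599).

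Oit3 encodes a secreted protein with a zona pellucida domain. Its signals were 1090, 800, 678, 748 and 1020 in Fra-1hep mice 1 to 5 and 821 in the Fra-1hep pool, against 1270 to 1390 in the wild-type pool. All Fra-1hep signals were below all wild-type signals, with mice 1 and 5 nearest to them. Oit3 was 1.54-fold lower (log2 -0.63, SE 0.12, adjusted p = 0.0162).

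Read per mouse, the 6 sinusoidal genes were lower in each of the 5 mice, apart from Stab2 in mouse 5, which was equal to wild type to 2 decimals. Their median log2 ratio was -0.38, -0.78, -0.80, -0.69 and -0.27 in mice 1 to 5, and -0.55 on the dye-swapped array. Mice 2, 3 and 4 had the lowest medians, and mice 1 and 5 the highest. With Kdr read from its brighter probe, the median of the 4 vessel genes lay between 0.05 and 0.20 on the 6 arrays. The other Kdr probe was lower on every array. With it these medians would be lower on the 5 mouse arrays and unchanged on the dye-swapped array. Over all 10 genes, 5 sinusoidal and 3 vessel genes had signals in the 5 Fra-1hep mice that did not overlap with the 6 wild-type signals, with those of Stab2 meeting at 4350. Among all genes tested 7.37% had all Fra-1hep mice below and 7.41% had all above. Ratios were below 0 on all 6 arrays for 8 of the 10 genes and above 0 on all 6 for 2, against 12.8% and 14% of all genes, with Stab2 in mouse 5 and Kdr in mouse 1 at 0.00 when rounded.

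**Figure D2:**
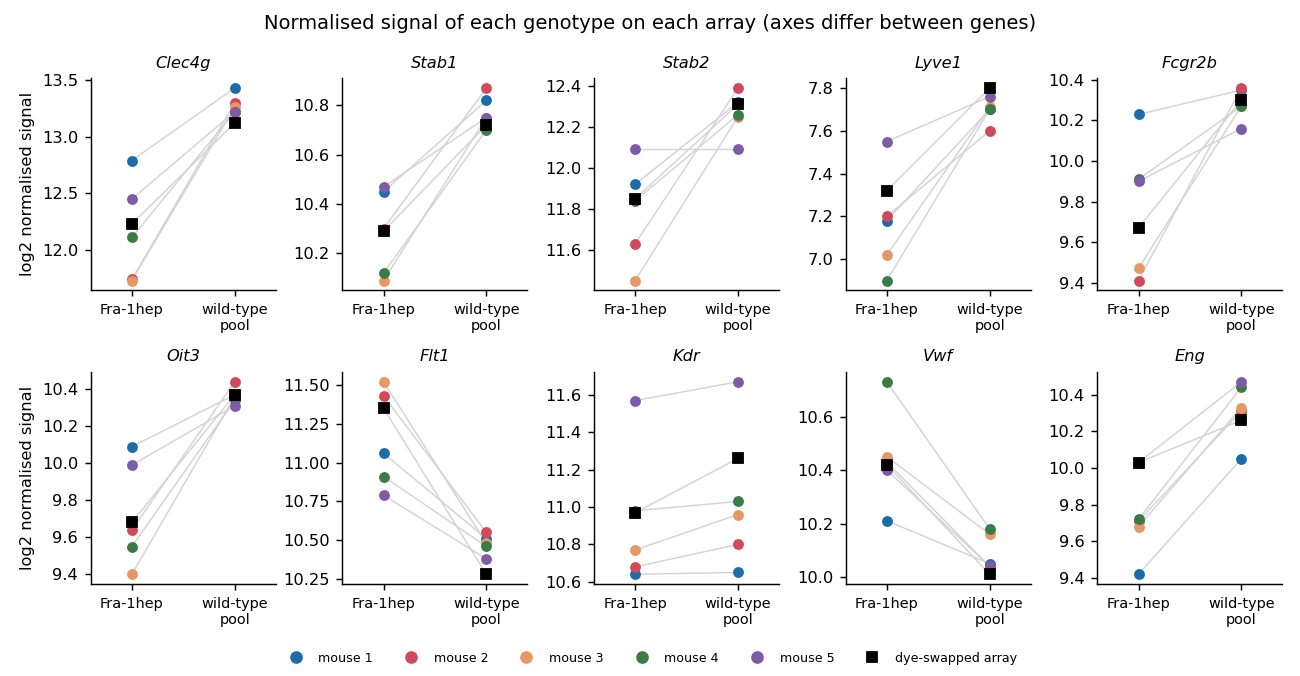
Log2 normalised signal (vertical axis, a separate range for each gene) of Fra-1hep (left) and the wild-type pool (right) for the 10 genes; grey lines join the 2 channels of an array, circles are arrays of single Fra-1hep mice and squares the dye-swapped array of pools. For Clec4g the Fra-1hep mice span 11.73 to 12.79, all below the wild-type signals, and for Flt1 they span 10.79 to 11.52, all above them.

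Flt1 encodes VEGF receptor 1, which binds VEGF-A, VEGF-B and placental growth factor and has a soluble form that acts as a decoy. It had the largest rise of the 10 genes. Signals were 2130, 2760, 2930, 1920 and 1770 in Fra-1hep mice 1 to 5 and 2610 in the Fra-1hep pool, against 1460, 1500, 1430, 1410, 1330 and 1240 in the wild-type pool on the same arrays. All Fra-1hep signals exceeded all wild-type signals, and mice 2 and 3 were highest. Flt1 was 1.78-fold higher (log2 0.83, SE 0.10, adjusted p = 0.00267), and 99.0% of genes tested had a lower ratio. The ratio was 1.07 on the dye-swapped array and 0.41 to 1.04 in the mice, and without the dye-swapped array it was 0.59 (adjusted p = 0.00364). The sources used here do not give which Flt1 transcripts the probe detects.

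Vwf encodes von Willebrand factor, the carrier of factor VIII that tethers platelets, made by continuous endothelium and by megakaryocytes. Its signals were 1190, 1380, 1400, 1700 and 1350 in Fra-1hep mice 1 to 5 and 1370 in the Fra-1hep pool, against 1030 to 1160 in the wild-type pool. The groups did not overlap, with mouse 4 highest and mouse 1 nearest to wild type. Vwf was 1.30-fold higher (log2 0.38, SE 0.08, adjusted p = 0.0188). Of 8 genes of platelets and megakaryocytes, 2 rose, against 5.96% of all genes tested, and 6 did not pass. The 2 were Pf4 (log2 0.67, SE 0.13, adjusted p = 0.0157) and Treml1 (0.47, SE 0.07, adjusted p = 0.00607). The summed signal of that list was 1630 to 2360 in Fra-1hep mice, against 1470 to 1590 in the wild-type pool. Gp1ba was not above background in the wild-type channel. The part of this list in the Vwf result was not tested.

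Eng encodes endoglin, the co-receptor for bone morphogenetic protein 9 on endothelium. Signals were 683, 836, 820, 842 and 1040 in Fra-1hep mice 1 to 5, against 1060, 1270, 1280, 1390 and 1420 in the wild-type pool on those arrays. The mice varied little around each other, with ratios of -0.72 to -0.45. On the dye-swapped array the ratio was smaller, at -0.23. Eng was 1.34-fold lower in the fit over both dye orientations (log2 -0.42, SE 0.07, adjusted p = 0.00806) and at -0.61 without the dye-swapped array (adjusted p = 0.000563).

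Kdr encodes VEGF receptor 2, the main signalling receptor for VEGF-A, and its 2 probes disagreed. The brighter probe, A_55_P2094469, has 1 spot and gave log2 ratios of 0.00, -0.12, -0.19, -0.06 and -0.10 in mice 1 to 5 and -0.29 on the dye-swapped array. Its fitted ratio was -0.18 (SE 0.06, 95% interval -0.32 to -0.04, adjusted p = 0.0919). The other probe, A_51_P316553, is spotted 10 times and gave -0.46, -0.89, -0.73, -0.55 and -0.36 in mice 1 to 5 and -0.59 on the dye-swapped array. In a fit over all 30071 probes its ratio was -0.56 (SE 0.09, adjusted p = 0.00525). The SD between its spots was 0.046 to 0.077, smaller than the gap between the probes on each array.

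The signal of the wild-type pool also separated the Kdr probes. On the probe with 10 spots it was 1690, 1720, 1720, 1720, 1760 and 1800 on the 6 arrays. On the brighter probe the same RNA gave 1600, 1780, 2000, 2100, 3260 and 2450, with an SD of 0.36 on the log2 scale, against 0.05 to 0.15 for the other 9 genes. With Kdr read from the probe with the most spots, a choice made after these values were seen, 7 of the 10 endothelial genes fell and 2 rose. The positions of the probes in the transcript are not given in the sources used here.

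**Figure D3:**
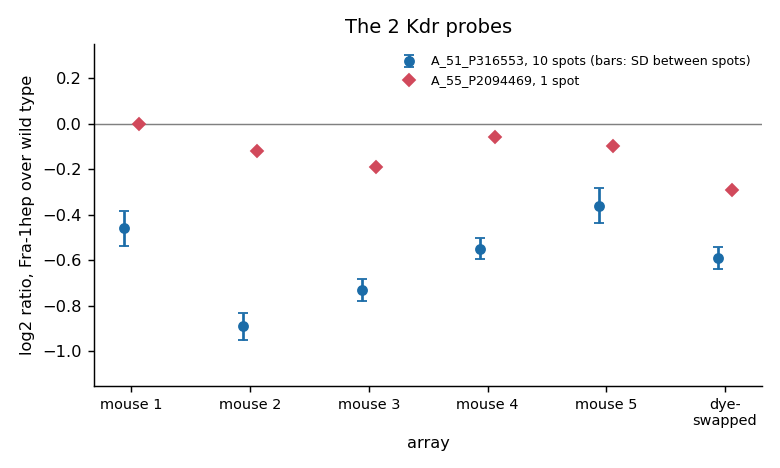
Log2 ratio of Fra-1hep over wild type (vertical axis) on each of the 6 arrays (horizontal axis) for the 2 probes of Kdr; bars are the SD between the 10 spots of the first probe, and the other probe has 1 spot. The probe with 10 spots lies between -0.89 and -0.36 and the other between -0.29 and 0.00, with the first one lower on every array.

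The arrays lay on 3 slides, which were compared as batches. On the slide with mice 3 and 4 and the dye-swapped array, the mean of both dye orientations was -1.11 for Clec4g, -0.52 for Stab1, -0.54 for Stab2, -0.61 for Lyve1, -0.61 for Fcgr2b and -0.78 for Oit3. Flt1 was at 0.91, Vwf at 0.42, Eng at -0.46 and Kdr at -0.21 there. The mean of mice 1 and 2, on another slide, had the same sign for every one of the 10 genes. Mouse 5 was alone on the third slide and, of the 5 mice, had the ratio nearest to 0 for Stab1, Stab2, Lyve1, Flt1 and Eng. Each array holds both genotypes. With mice 2 and 3 counted apart, Stab2 passed both without a slide block (adjusted p = 0.0421) and with the slide as a random block (0.0431), and the 8 calls stayed in place.

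Among endothelial genes beyond the 10, falls outnumbered rises, and more did not pass than fell. Among 58 tested genes of 4 further lists, drawn up with earlier results of these data known, 24 fell, 1 rose and 33 did not pass, with a median of -0.27. The share that fell was 41.4%, against 6.51% of all genes tested. Of 17 other sinusoidal genes 8 fell and 0 rose (median -0.42). The largest falls were in Bmp2 (log2 -0.72, SE 0.17, adjusted p = 0.0338), a sinusoidal ligand that controls hepcidin, Dnase1l3 (-0.65, SE 0.11, adjusted p = 0.00878), a secreted nuclease, and Gpr182 (-0.63, SE 0.13, adjusted p = 0.0181), an atypical chemokine receptor. Bmp2 lost its call under 5 of 18 alternative analyses, among them without mouse 4 (adjusted p = 0.0605).

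Genes of endothelium in general were lower as well. Of 20 of them 13 fell and 0 rose (median -0.39), led by the tight junction gene Cldn5 (-0.66, SE 0.09, adjusted p = 0.00403), Mmrn2 (-0.58, SE 0.10, adjusted p = 0.00949), a matrix protein of vessels, and Cdh5 (-0.51, SE 0.11, adjusted p = 0.0238), the cadherin of endothelial junctions. Of 16 tested genes of portal, central and arterial vessels 3 fell, the gap junction gene Gja4 (-0.57, SE 0.15, adjusted p = 0.0474), the diaphragm gene Plvap (-0.51, SE 0.08, adjusted p = 0.00758) and the chemokine receptor Ackr1 (-0.50, SE 0.10, adjusted p = 0.0165). Gja4 lost its call under 7 of 18 alternative analyses, among them without mouse 5 (adjusted p = 0.0697) and with median centring (adjusted p = 0.0585). The 1 gene of these lists that rose, named here for that reason after its values were seen, was Cd34 (0.47, SE 0.10, adjusted p = 0.0222), which marks continuous endothelium and blood progenitors. Of 5 tested lymphatic genes 0 passed, with Ccl21a at -0.16 (adjusted p = 0.363) and Reln, also a stellate cell gene, at -0.10 (adjusted p = 0.376).

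Scaling moved these counts. Loess sets each array so that most genes lie near 0. With median centring the median of all genes was 0.08, the share of changed genes that were higher went to 74.7%, against 47.8% with loess, and of the 58 genes 14 fell and 2 rose. The 10 endothelial genes kept their direction, with 5 that fell and 2 that rose. With the processed signals 7 of the 58 fell and 0 rose, and with the series table of the authors the counts were also 7 and 0.

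Ligands and partners of the vessel receptors moved in both directions. Of 24 tested genes of the VEGF, angiopoietin and endoglin pathways 5 fell, 2 rose and 17 did not pass, with a median of -0.07, while 12.5% of all genes changed. The number that changed was 11 without the dye-swapped array and 12 with no dye term. Tgfbr2, the type 2 receptor for TGF-β, was 2.33-fold higher (log2 1.22, SE 0.08, adjusted p = 0.000155), with a further probe at 0.75. Id1 (-0.86, SE 0.11, adjusted p = 0.00261) and Id3 (-0.65, SE 0.07, adjusted p = 0.00125), targets of bone morphogenetic protein signalling, were lower. The other genes that changed were Nrp2, a VEGF-C co-receptor (0.44, adjusted p = 0.00656, with a further probe at 0.23), and Tgfb1 (-0.42, adjusted p = 0.0132), along with the angiopoietin receptor gene Tek (-0.41, adjusted p = 0.0364) and Gdf2, which encodes bone morphogenetic protein 9 (-0.29, adjusted p = 0.0171). These 4 are named outside the rule for named genes, because the count was small. So are the Flt1 ligand genes Vegfa (-0.02, adjusted p = 0.904, with a further probe at -0.24), Vegfb (-0.30, adjusted p = 0.142) and Pgf (0.12, adjusted p = 0.230), which did not pass. Gdf2 was at -0.16 and did not pass with median centring (adjusted p = 0.151). Tek lost its call under 6 of 18 alternative analyses, among them without mouse 1 (adjusted p = 0.0649) and without mouse 4 (adjusted p = 0.0601).

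**Figure D4:**
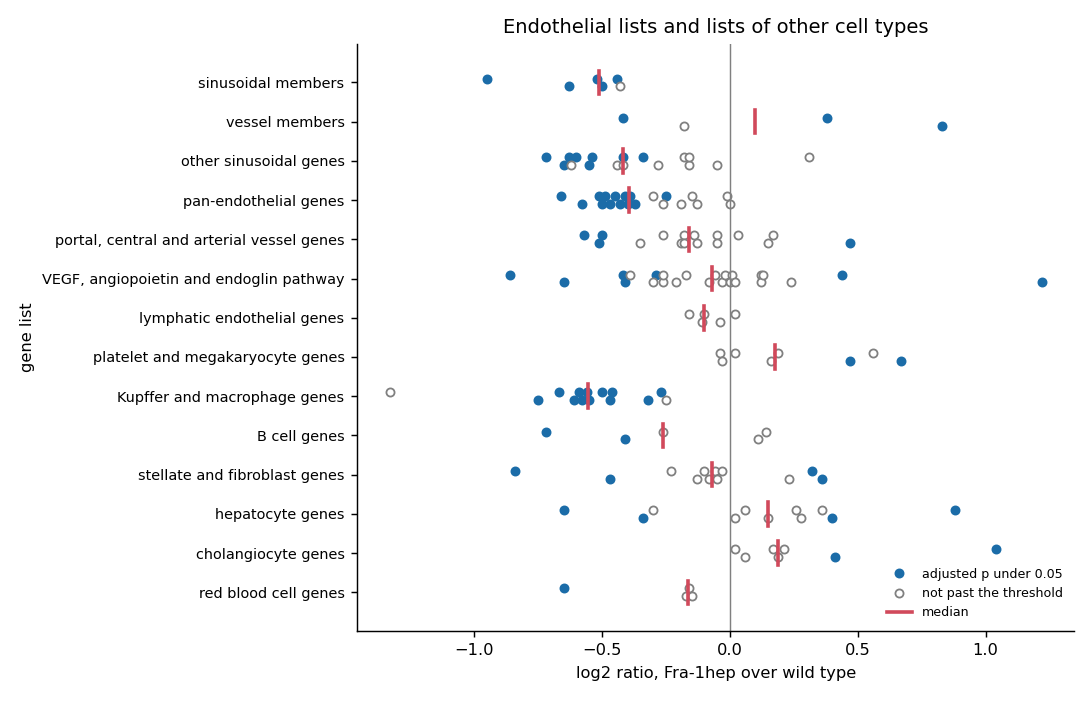
Fitted log2 ratio of Fra-1hep over wild type (horizontal axis) for each tested gene of the lists named on the vertical axis; filled points passed an adjusted p of 0.05, open points did not, and red bars are medians. The sinusoidal genes (first line, median -0.51) lie where the Kupffer and macrophage genes do (median -0.55), and the neutrophil list, with values up to 3.53, is not drawn.

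Genes of other cells moved beside the endothelial ones. Of 14 Kupffer cell and macrophage genes 12 fell and 0 rose (median -0.55), including Cd5l (log2 -0.75, adjusted p = 0.0207), Timd4 (-0.67, adjusted p = 0.0263) and the Kupffer lectin Clec4f (-0.61, adjusted p = 0.00723). Timd4 lost its call under 4 of 18 alternative analyses, among them without mouse 1 (adjusted p = 0.0525). The summed signal of the 14 genes was 44300 to 73200 in Fra-1hep mice, against 87000 to 99400 in the wild-type pool, and each of the 14 was above background in both channels of all 6 arrays. Stab1 and Fcgr2b are also expressed by macrophages. The part of macrophages in those results, or in those of any other sinusoidal gene, was not tested. The summed signal of the 6 sinusoidal genes was 8800 to 14800 in Fra-1hep mice, against 18200 to 20800 in the wild-type pool. By array, the macrophage median was -0.73, -0.71, -0.75, -0.37 and -0.35 in mice 1 to 5, while the sinusoidal median was lower in mouse 4 than in mouse 1. Of 12 stellate cell genes 2 fell and 2 rose, of 7 cholangiocyte genes 2 rose, and of 11 hepatocyte genes 2 fell and 2 rose. Of 10 neutrophil genes 9 rose, and of 4 red blood cell genes 1 fell. Among all genes tested 12.5% changed. Of the hepatocyte calls, Alb was at -0.46 to 0.07 in the mice and -1.08 on the dye-swapped array. Ass1 was at 0.57 to 1.08 against 0.00, and Fgb at 0.89 to 2.01 against 0.13. The 1 remaining call was alike in both dye orientations.

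The genes with ratios most like those of Clec4g over the 6 arrays were Saa4, Ces1f and Atp12a, with mean absolute differences of 0.065, 0.087 and 0.090. Nearest to Flt1 were Cdh1, Vil1 and Ccn5, at 0.078, 0.105 and 0.106. They were searched among the 13937 tested genes with a symbol, and none of the 6 is in the endothelial lists.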

How the data were processed

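The members and lists were chosen with earlier results of these data known, and gene lists come from textbook knowledge. The design text counts 6 single mutant mice, while groups here follow the sample labels, which name 5, the remaining array being the dye swap. Per the file headers, images were read by the authors using Agilent Feature Extraction 10.7.3.1 (10.7 in the submitters' processing notes), and the deposited files hold median spot and background signals as intensity, with no normalization, processed signals, the log10 ratio of Cy5 over Cy3, and other columns of marks per spot. Log2 values in the deposited series matrix equal Fra-1hep over wild-type ratios of the processed signals, also for the dye swap (median absolute difference from the scanner files at most 1.73e-07).

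Here median signals were corrected with normexp (offset 50) and loess within arrays in limma 3.58.1 under R 4.3.3, with jsonlite 2.0.0 and data.table (version 1.17.8). Controls and outlier-marked spots (between 379 and 572 an array) had weight 0, and the outlier-marked ones were dropped. Channel signals were scaled between arrays on their average (Aquantile). Accessions gave 1 symbol for 26056 of 55681 probes (RefSeq genes of GRCm38.p6), with the brightest probe standing for its gene. Genes were kept for testing when well above background on 3 or more of the 5 mouse arrays (Fra-1hep signal) or of all 6 (wild-type signal). limma (lmFit, eBayes) estimated a genotype coefficient beside a dye constant from the log2 Cy5/Cy3 ratios, 2-sided, with 3 residual and 4.67 prior degrees of freedom and Benjamini-Hochberg adjustment over 22823 genes. The dye-swapped array has as much weight in this estimate as all mouse arrays together. The fit was also run on simulated data, and no outcome of that run is given here. All 10 endothelial genes were described. In each other list at most 3 changed genes with the largest ratio were named, or the 2 with the lowest adjusted p where none changed, and likewise the 3 genes nearest to the members with the largest fall and rise.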

Additional observations from a re-analysis of the deposited data

How the results depend on the processing

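All 10 endothelial genes kept their direction under all 18 alternatives. The number that changed was 8 in the analysis given, 7 to 8 leaving out each mouse in turn (5 to 6 lower, 2 higher), and 2 (1 lower, 1 higher) with the processed signals and with the series table of the authors. Calls over all genes were 2846 (1361 higher, 1485 lower), and 2310 to 2715 without 1 mouse (1113 to 1303 higher, 1197 to 1449 lower). They were 6087 (3453 higher, 2634 lower) without the dye-swapped array, 4781 (2478 higher, 2303 lower) with no dye term, 1543 (752 higher, 791 lower) with processed signals, 1546 (755 higher, 791 lower) with the series table, and 3293 (2461 higher, 832 lower) with median centring. The 24 wider endothelial genes that fell were 20 to 25 without 1 mouse, 14 with median centring and 7 with processed signals or the series table, and the 1 that rose was 1 without any mouse, 2 without the dye-swapped array, with no dye term or with median centring, and 0 with processed signals or the series table. The causes were not tested. For the 10 members and 26 of the other named genes, 60 values no longer passed and 7 newly passed, and 0 changed sign among called values. Fcgr2b lost its call under 7 alternatives, and Flt1 and Eng under 0. Stab2 passed under 5 and Kdr under 2, both from the probe rule. Dim probes such as Lyve1 depend on the offset. No paired analysis was possible because the wild-type pool is 1 sample and the replicate numbers name Fra-1hep mice only. Dixon's test flagged 0 of the 10 genes over the 4 counted samples.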
